A study of Rattus norvegicus with 6 samples.

Results

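Gpnmb, galectin-3 (Lgals3) and the lysosomal cathepsins B, D and L (Ctsb, Ctsd, Ctsl) are 5 of the 32883 Ensembl gene rows counted by bulk RNA sequencing in cultured rat spinal cord ependymal stem cells. The study asked how these cells, which line the central canal and serve as neural stem cells in culture, respond to glutamate at a level that is toxic to neurons. The control group was 3 libraries from cells in neurobasal media, and the glutamate group was 3 libraries from cells in the same medium with 500 uM glutamate, all at day 2. Rows were matched by Ensembl ID: ENSRNOG00000008816 for Gpnmb, ENSRNOG00000010645 for Lgals3, ENSRNOG00000010331 for Ctsb, ENSRNOG00000020206 for Ctsd and ENSRNOG00000018566 for Ctsl. The pairing of ID and symbol came with this list and could not be checked against the count files. The genes were chosen by function with their glutamate and control values in these same libraries already known, so those values are a description, no p-value is given for them and nothing is supported by them. The labels do not say whether the libraries of a group came from separate animals or cultures, so the spread between them may be technical.

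Lysosomes are the acidic compartments in which cells break down proteins, lipids and engulfed material. Cathepsins are their main proteases, made as inactive precursors, carried to the lysosome largely by mannose 6-phosphate receptors and activated at low pH. Many lysosomal genes, and Gpnmb, are known targets of the MITF/TFE family of transcription factors, which bind E-box and M-box sequences. In injured spinal cord Gpnmb and galectin-3 are best known from reactive microglia and macrophages. The 8 pathway lists (other cathepsins, galectins, hydrolases, V-ATPase and the like) and 8 cell type marker lists, those of microglia and of ependymal cells included, could not be looked up, because the sources used here hold an Ensembl ID beside a symbol in 0 rows. The labelled cell type was therefore not checked against its markers, and the part of other cells in the values below was not tested. In bulk RNA a change in the number of expressing cells and a change in RNA per cell cannot be told apart.

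The promoters are shown because Gpnmb and many lysosomal genes are known targets of factors that bind E-box and M-box sequences. Whether any motif has a part in the levels below was not tested. Sequences for 3 of the 5 genes were matched by symbol in RefSeq (assembly GRCr8, not the rn6 build of the counts). Each run gives the 250 bases before the annotated start, on the gene's strand, 5′ to 3′. Capitals mark matches to 3 of the 4 motifs searched on both strands. These were the E-box CACGTG, the M-box TCACATGA, the AP-1 site TGANTCA (N is any base) and the cyclic AMP response element TGACGTCA.
Gpnmb, chr4:79340878-79341127, plus strand: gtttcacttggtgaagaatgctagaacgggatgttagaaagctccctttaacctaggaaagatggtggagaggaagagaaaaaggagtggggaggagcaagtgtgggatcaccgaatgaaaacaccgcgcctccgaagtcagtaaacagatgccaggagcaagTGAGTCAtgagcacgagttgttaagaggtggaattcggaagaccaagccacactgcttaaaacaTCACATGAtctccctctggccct
Ctsd, chr1:206968822-206969071, minus strand: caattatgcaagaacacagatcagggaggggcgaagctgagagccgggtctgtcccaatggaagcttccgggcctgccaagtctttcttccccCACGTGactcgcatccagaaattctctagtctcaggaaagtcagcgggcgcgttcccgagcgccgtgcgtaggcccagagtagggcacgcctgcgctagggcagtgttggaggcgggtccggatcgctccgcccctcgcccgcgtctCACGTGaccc
Ctsl, chr17:769854-770103, plus strand: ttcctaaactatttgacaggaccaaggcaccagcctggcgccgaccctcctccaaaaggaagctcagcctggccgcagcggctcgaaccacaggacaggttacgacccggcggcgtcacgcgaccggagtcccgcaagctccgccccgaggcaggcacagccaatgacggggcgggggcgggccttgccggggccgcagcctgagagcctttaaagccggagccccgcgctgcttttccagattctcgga

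The Gpnmb window held an M-box from base 23 to base 16 before the start and an AP-1 match from base 87 to base 81. The M-box letters occurred in 0.977% of the 33469 RefSeq windows of this length and the AP-1 letters in 6.34%. The Ctsd window held the E-box letters at 2 places, bases 157 to 152 and bases 10 to 5. At least 1 E-box occurred in 5.59% of all windows and 2 or more in 0.430%. The Ctsl window had 0 matches to the 4 motifs, and the TGACGTCA letters, found in 1.59% of all windows, were in none of the 3. The windows of Ctsd and Ctsl were 63.2% and 66.8% G and C and that of Gpnmb 48.8%, against a median of 51.2% over all windows. These are matches of letters. The motifs were chosen with the sequences in view, and binding was not measured.

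Total counts ran from 166567977 to 181352365 per library, and 1 CPM, the unit of the levels below (counts scaled to library size, with TMM factors), stood for 167 to 180 reads. Levels are not corrected for transcript length and so are compared between groups for 1 gene, not between genes. The fold changes are estimates of an edgeR quasi-likelihood fit to all 15919 genes tested, with a standard error (SE) on the log2 scale.

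Gpnmb, a transmembrane glycoprotein of late endosomes and lysosomes, had the largest difference of the 5 genes. Its control levels were 6.59, 6.57 and 6.31 CPM in replicates 1 to 3 and its glutamate levels 43.2, 40.2 and 45.7 CPM. The groups lay far apart: the lowest glutamate library stood 6.11 times above the highest control library. The means were 6.49 ± 0.16 CPM in control and 43.0 ± 2.7 CPM with glutamate (SD, n = 3 each). The log2 fold change was 2.73 (SE 0.07), which is 6.63-fold with a 95% interval of 5.92 to 7.43. These levels rest on 1072 to 1186 reads in the control libraries and 6969 to 7661 with glutamate. Ordered by reads, Gpnmb stood between the 9635th and the 9831st place of the 32883 gene rows in control libraries and between the 4912th and the 5337th with glutamate. Its rise was the 122nd largest of the 15919 tested genes and the 21st largest of the 10179 whose mean level reached 5 CPM.

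Lgals3 encodes galectin-3, a lectin that binds galactose-containing glycans and gathers on damaged lysosomes when their inner glycans become exposed. It had few reads, with levels of 0.656, 0.629 and 0.436 CPM in control replicates 1 to 3 and 1.27, 1.16 and 1.04 CPM with glutamate. All 3 glutamate libraries were above all 3 control libraries, by a narrower margin than for Gpnmb. The means were 0.573 ± 0.120 CPM in control and 1.16 ± 0.12 CPM with glutamate (SD, n = 3 each). The log2 fold change was 1.01 (SE 0.19), or 2.02-fold with a 95% interval of 1.50 to 2.72. Counts were 118, 113 and 74 reads in the control libraries and 226, 201 and 173 with glutamate. Counting error alone gave an exact 95% Poisson interval of 0.342 to 0.547 CPM for control replicate 3 and of 0.543 to 0.785 CPM for control replicate 1. That of the lowest glutamate library was 0.890 to 1.21 CPM. These intervals treat reads as independent molecules and leave out the spread between libraries, so the groups are not compared by them. Without control replicate 3, the lowest library, the fold was 1.80.

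Ctsl, the cysteine protease cathepsin L, was modestly higher with glutamate. Control replicates 1 to 3 had 54.6, 47.9 and 45.9 CPM, and glutamate replicates 1 to 3 had 65.2, 64.7 and 70.6 CPM. The groups did not overlap, and the gap between the highest control and the lowest glutamate library was 1.18-fold. Mean levels were 49.5 ± 4.6 CPM in control and 66.8 ± 3.2 CPM with glutamate (SD, n = 3 each). The log2 fold change was 0.43 (SE 0.08), which is 1.35-fold with a 95% interval of 1.20 to 1.52. Each library held 7791 reads or more, so counting error was small beside the spread between libraries.

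Ctsb, the cysteine protease cathepsin B, had nearly the same mean in both groups. Its levels were 233.9, 218.1 and 206.7 CPM in control replicates 1 to 3 and 219.5, 222.6 and 219.2 CPM with glutamate. The glutamate libraries fell inside the control range. Means were 219.6 ± 13.6 CPM in control and 220.4 ± 1.9 CPM with glutamate (SD, n = 3 each). The log2 fold change was 0.01 (SE 0.06), with a 95% interval of 0.916-fold to 1.10-fold. A fall or rise within that interval is not excluded.

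Ctsd, the aspartic protease cathepsin D, likewise overlapped between groups. Control replicates 1 to 3 had 249.3, 237.4 and 223.9 CPM and glutamate replicates 1 to 3 had 244.4, 243.8 and 252.8 CPM. Control replicate 1 was above 2 of the 3 glutamate libraries. Means were 236.9 ± 12.7 CPM in control and 247.0 ± 5.0 CPM with glutamate (SD, n = 3 each). The log2 fold change was 0.06 (SE 0.06), with a 95% interval of 0.954-fold to 1.14-fold.

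**Figure D1:**
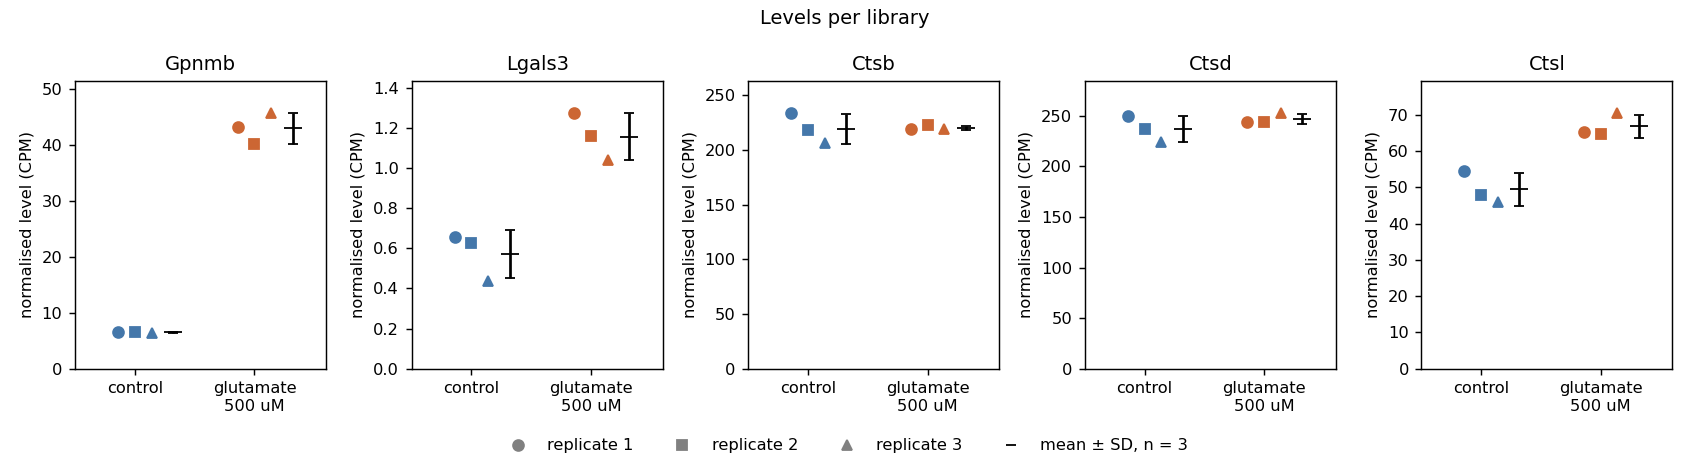
Normalised level (CPM, linear axis from 0, a separate scale per gene) of the 5 genes in each control (blue) and glutamate (orange) library, with marker shapes for replicates 1 to 3 and black bars for the mean ± SD (n = 3). Gpnmb, Lgals3 and Ctsl show no overlap between groups, while the glutamate values of Ctsb lie inside the control range of 206.7 to 233.9 CPM.

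At an adjusted p below 0.05, 3 of the 5 genes (Gpnmb, Lgals3, Ctsl) were called, all as rises, where 27.7% of all tested genes were called in either direction. The same 3 genes had no overlap between groups, which held for 46.8% of all tested genes. Because the genes were chosen with this comparison known, nothing is read from these counts. The median log2 fold change of the 5 genes was 0.43, that of Ctsl, and the median over all tested genes was -0.01.

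**Figure D2:**
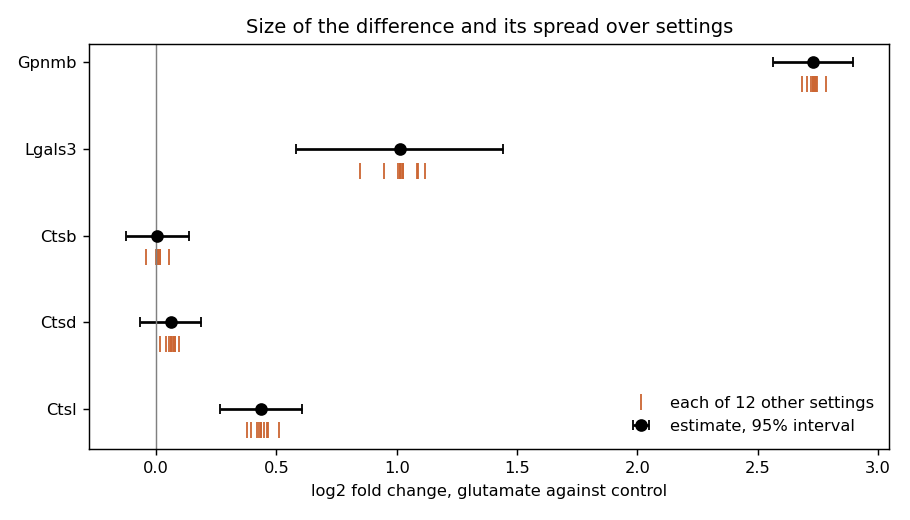
Log2 fold change of glutamate against control for each gene (black point, 95% interval) with the estimates under 12 other settings below it (orange ticks). The intervals of Ctsb and Ctsd span 0, and all ticks of Gpnmb lie between 2.68 and 2.78.

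**Figure D3:**
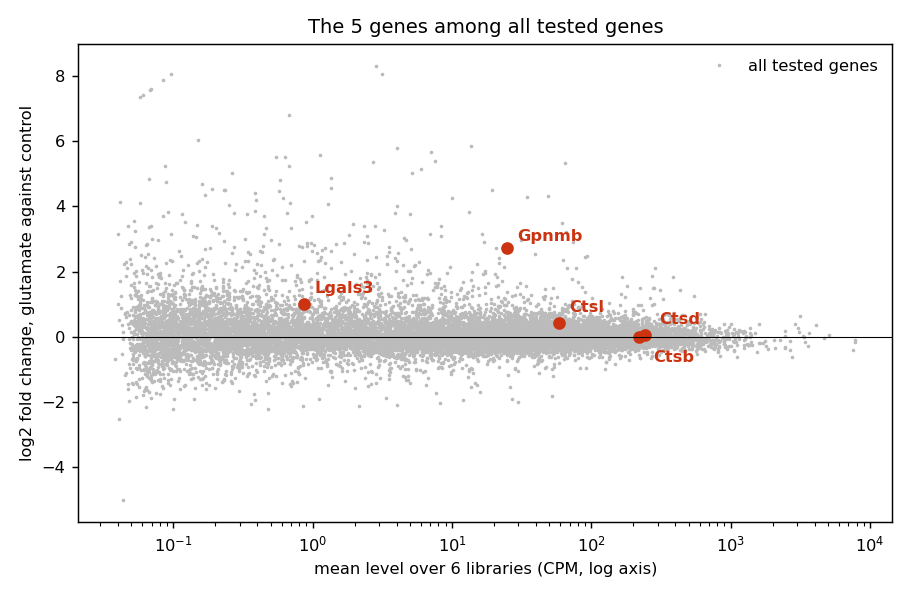
Log2 fold change against mean level over the 6 libraries (CPM, log axis) for all 15919 tested genes (grey) and the 5 genes (red). Gpnmb lies at 2.73 and Ctsl at 0.43, while Ctsb and Ctsd, the 2 rightmost red points, lie near 0.

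Control replicate 1 was the highest and control replicate 3 the lowest of the control libraries in all 5 genes. The share of all tested genes with this order was not counted, so it is not read as a trait of these genes. The highest and lowest control libraries differed 1.13-fold in Ctsb, 1.11-fold in Ctsd, 1.19-fold in Ctsl and 1.51-fold in Lgals3, and 1.04-fold in Gpnmb. The glutamate libraries differed 1.02-fold in Ctsb, 1.04-fold in Ctsd, 1.09-fold in Ctsl and 1.23-fold in Lgals3. Gpnmb was the exception, with a wider range with glutamate (1.14-fold) than in control. Whether the spread differs between groups was not tested. In Ctsb the exact Poisson intervals of control replicate 1 (231.6 to 236.1 CPM) and control replicate 3 (204.6 to 208.9 CPM) were far apart, so their difference exceeded counting error. In Gpnmb the intervals of control replicate 1 (6.22 to 6.98 CPM) and control replicate 3 (5.94 to 6.70 CPM) overlapped, as they did in Lgals3.

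Ratios of reads within a library do not depend on how libraries are scaled to each other. For every 100 Ctsb reads the control libraries held 23.4, 22.0 and 22.2 Ctsl reads and the glutamate libraries 29.7, 29.1 and 32.2. The mean ratio was 22.5 ± 0.8 in control and 30.3 ± 1.6 with glutamate (SD, n = 3 each), so Ctsl was higher relative to Ctsb in every glutamate library than in any control library. Relative to Ctsd the same held, with 20.9 ± 0.9 Ctsl reads per 100 Ctsd reads in control and 27.1 ± 0.7 with glutamate (SD, n = 3 each). The ratio of Ctsd to Ctsb moved less: there were 106.6, 108.8 and 108.3 Ctsd reads per 100 Ctsb reads in control and 111.3, 109.5 and 115.3 with glutamate. The SD of this ratio was 1.16 on a mean of 107.9 in control and 2.97 on a mean of 112.1 with glutamate. The levels of Ctsb alone had a coefficient of variation of 6.21% in control and 0.86% with glutamate. Relative to its mean, the ratio thus varied less than Ctsb in control and more than Ctsb with glutamate. Gpnmb reads per 100 Ctsd reads went from 2.74 ± 0.09 in control to 17.4 ± 0.8 with glutamate (SD, n = 3 each). Lgals3 reads per 100 Gpnmb reads were lower with glutamate, at 8.81 ± 1.66 in control and 2.70 ± 0.37 with glutamate (SD, n = 3 each). Lgals3 itself was higher with glutamate (2.02-fold), but Gpnmb more so (6.63-fold). These ratios come from the comparison that chose the genes and carry no test.

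**Figure D4:**
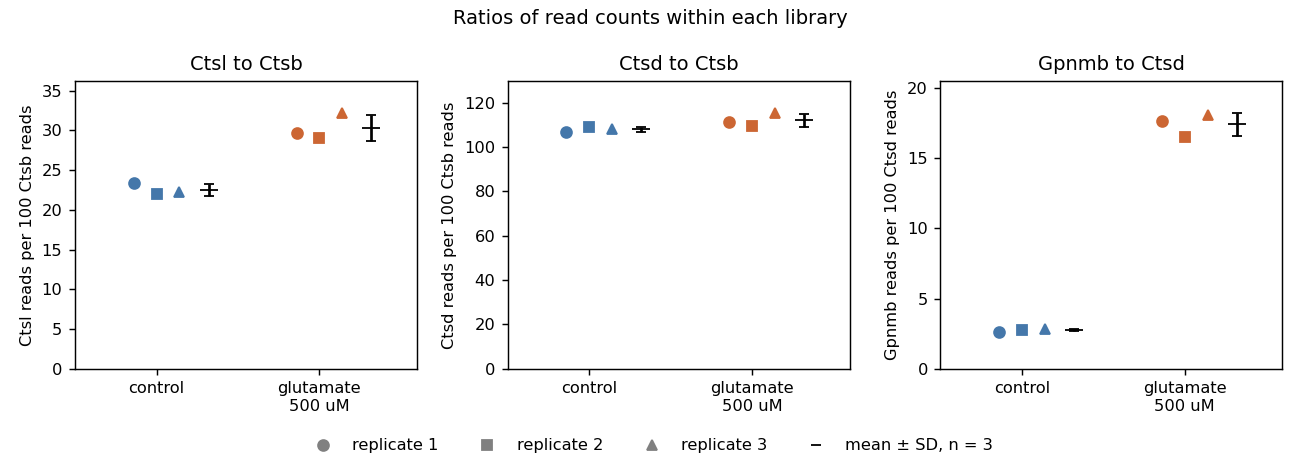
Ratio of read counts within each library (linear axis from 0) for Ctsl to Ctsb, Ctsd to Ctsb and Gpnmb to Ctsd, with marker shapes for replicates 1 to 3 and black bars for the mean ± SD (n = 3). The Ctsl to Ctsb ratio is at most 23.4 in control and at least 29.1 with glutamate, while the Ctsd to Ctsb ratios of the groups lie next to each other (at most 108.8 and at least 109.5).

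Summed over the 3 cathepsins, the level was 505.9 ± 30.8 CPM in control and 534.2 ± 7.3 CPM with glutamate (SD, n = 3 each). The groups overlapped, as control replicate 1 reached 537.8 CPM and glutamate replicate 1 had 529.0 CPM. The sum is a share of reads in which longer transcripts weigh more.

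The pattern of each gene was set beside those of 10175 other genes whose mean level reached 5 CPM. Likeness was the root mean square difference over the 6 libraries between log2 levels, each taken relative to the gene's own control mean. For a gene with a large difference between groups, this measure depends mainly on the size of that difference. That size was known when the genes were chosen, so nothing is read from few or many near patterns. For Gpnmb, 7 of 10175 genes came within 0.25 and 0 within 0.1, the nearest at 0.11. For Lgals3, whose low counts add noise to its own pattern, 62 came within 0.25 and 0 within 0.1. Ctsl had 1887 genes within 0.25 and 119 within 0.1. Patterns like those of Ctsb and Ctsd, which were nearly flat, were common, with 7715 and 7516 genes within 0.25. Among the 5 genes, Ctsb and Ctsd were closest to each other (0.05), and Gpnmb was far from all others, from 1.22 for Lgals3 to 1.92 for Ctsb. The nearest genes are not named, because their IDs carry no symbols here.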

How the data were processed

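RNA from 3 control and 3 glutamate libraries was counted per Ensembl gene. Each library has its own table of raw counts, as deposited by the authors and per the file headers. The submitters' processing notes name featureCounts 2.0.1, STAR 2.7.8a, SAMtools, Trim Galore 0.6.5 and build rn6. Strand setting, annotation release and the handling of multi-mapping reads are not stated there, so reads shared with related or overlapping genes cannot be told apart. Counts were fitted with edgeR 4.0.16 (R 4.3.3): filterByExpr (minimum count 10, minimum total 15; all 5 genes passed), TMM, robust quasi-likelihood fits, glutamate against control over 6 libraries, no covariates, Benjamini-Hochberg adjustment over 15919 genes. SE is the log2 fold change over the square root of F. No libraries were duplicates: chi-square per gene within groups was 19.0 or more, where sampling noise gives about 1. Alternatives were RLE factors, total counts, DESeq2 1.42.0, other low-count filters, a replicate block and leaving out each library. The other filters were none, and 1 CPM in 3 libraries. Lgals3 passed the latter through its glutamate libraries only, so its value under that filter is no separate check. The genes, lists and tests were chosen with earlier results of these data known. All 5 genes were named by rule. The further genes that rule would name, the largest calls of each list and the nearest patterns, have no symbols here and were not named.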

Additional observations from a re-analysis of the deposited data

How the results depend on the processing

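Under the 12 alternatives the log2 fold changes moved by at most 0.06 for Gpnmb, 0.17 for Lgals3, 0.05 for Ctsb, 0.04 for Ctsd and 0.08 for Ctsl. The largest shift of each gene came from leaving out 1 library. The SD of log2 levels between replicates, pooled over both groups, was 0.07, 0.25, 0.06, 0.06 and 0.10. The SD of the tighter group alone can be smaller than the shift. In a group of 3, leaving out 1 library moves the mean by less than the pooled SD almost whatever the values. That the shifts were smaller than this SD is therefore no check of the estimates. Gpnmb ran from 2.68 to 2.78, Lgals3 from 0.85 to 1.12, Ctsl from 0.38 to 0.51, Ctsd from 0.02 to 0.10 and Ctsb from -0.04 to 0.05. Ctsb was below 0 with no low-count filter and without control replicate 3. Over all genes, 4413 were called with 6 libraries (2239 rises and 2174 falls), and with any 1 library left out the number was between 2420 and 5584, with between 1397 and 2921 rises and between 945 and 2663 falls. The count was 2603 without control replicate 2, and 2442, 2420 and 2436 without glutamate replicates 1, 2 and 3. It was higher than with 6 libraries without control replicate 1 (5311) and without control replicate 3 (5584). The cause was not tested. With the replicate number as a block (replicate block) the values were 2.73, 1.02, 0.01, 0.06 and 0.44 for Gpnmb, Lgals3, Ctsb, Ctsd and Ctsl. With the block the SE of Lgals3 was 0.167, against 0.191 without it, and the SE of each other gene was slightly larger. Deviations of same-numbered libraries correlated at 0.15, -0.09 and 0.30 in the 3 pairs. Libraries with different numbers were not compared in this way, so whether the numbers mark pairs is not settled. The main fit did not take them as pairs. The alternatives for the lysosome and galectin lists were not run, because those genes could not be looked up. Depth limits Lgals3 most among the 5 genes, with 74 to 226 reads per library.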
